A study of Mus musculus with 12 samples.

Results

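Integrins are the transmembrane receptors by which cells hold on to their matrix, and focal adhesion adaptors are the proteins that join them to the actin cytoskeleton. The 42 genes described here are 25 integrin subunits, the receptors of fibulin-5 among them, and 17 adaptors, chosen by gene symbol. Of the 42, 40 had a probe on the array, out of 19057 genes with a probe, and Itga10 and Ptk2 (focal adhesion kinase) had none. Where a gene had several probes, which was so for 24 of the 40, the probe with the highest mean over all arrays stood for it.

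The arrays measured total RNA of mouse carotid arteries 1 day after the left common carotid (LCA) had been partially tied off, an operation that brings disturbed flow to that artery and leaves the right one (RCA) untouched. The design asks how loss of fibulin-5, a secreted elastic fibre protein, bears on the artery under disturbed flow. There were 12 arrays in 4 groups of 3, namely the RCA and the LCA of wild-type (WT) mice and the RCA and the LCA of fibulin-5 knockouts (KO). The labels give C57Bl/6J for all 12 samples and name the other line FibVKO, while the design text speaks of both a knockdown and a KO of Fibulin V. All mice had been operated on, so an RCA is the untouched artery of a ligated mouse and not that of a sham-operated one. The deleted exons, the tissues of the deletion, age, sex and the number of mice per array are not given in the labels. The labels number the replicates without stating that each is another animal, and every p-value here therefore rests on the spread from array to array, which may be technical.

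An integrin is a pair of an alpha and a beta subunit, and the pair decides what it binds: laminin, collagen, or short motifs such as the Arg-Gly-Asp (RGD) sequence of fibronectin, vitronectin and fibulin-5. Talins and kindlins bind the short tail of the beta subunit inside the cell and switch the receptor on, integrin-linked kinase (ILK) with PINCH and parvin docks there, and vinculin, alpha-actinin and filamin tie the complex to actin. In the artery wall these contacts hold smooth muscle cells to elastic fibres and endothelial cells to the basement membrane, and they take part in the sensing of flow and stretch.

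Levels are given as deposited intensity values, a probe's brightness on a linear scale, which ran from 72.4 to 10230 with a median of 93.6, so most probes sat close to the floor and their fold differences are compressed. As a guide to background, the 95th percentile of the 1504 probes of odorant and vomeronasal receptor genes, which an artery is not known to use, was taken on each array. This receptor level lay between 95.7 and 126, the latter on WT LCA replicate 3. That array stood apart: 15.99% of genes exceeded its receptor level against 28.6% to 48.6% on the other arrays, and its median correlation with the other arrays was 0.691 against 0.781 to 0.865. The Fbln5 probe was at 80.6 to 97.4 and above the receptor level on 0 of the 12 arrays, WT ones included, so it gives no check of the genotype labels. Of the defining markers of the artery wall, 10 of 14 endothelial genes, 1 of 12 smooth muscle genes and 2 of 12 fibroblast genes exceeded the receptor level on all 12 arrays. The same was true of 0 of 11 macrophage, 0 of 8 neutrophil and 0 of 7 lymphocyte genes, with Fcgr1, Cd3e, Cd3g and Cd79b above it on no array, and of 1 of 7 platelet, 3 of 5 erythrocyte, 0 of 8 adipocyte and 0 of 5 Schwann cell genes.

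Detection split the genes into adaptors that the arrays saw and integrins that they mostly did not. Over all 12 arrays, 7 genes exceeded the receptor level: the integrin subunits Itga9 and Itgb1 and the adaptors Vcl, Zyx, Parva, Actn4 and Flna. Another 12 did so on every array of at least 1 group, which makes 19 in all, 7 of 24 integrin subunits (Itga1, Itga3, Itga5, Itga9, Itgb1, Itgb4 and Itgb5) and 12 of 16 adaptors. A further 15 exceeded it on some arrays without filling a group, and 6 (Itga2, Itga2b, Itga7, Itgal, Itgam and Fermt3) on no array. By group, 16 genes exceeded it on all WT RCA arrays, 18 on all KO RCA arrays, 17 on all KO LCA arrays and 7 on all WT LCA arrays, and on WT LCA replicate 3 alone only 10 did. The filter on dim probes (at or above the array's median on at least 3 arrays) left 36 of the 40 for testing. Itga7, Itgal, Itgam and Itgb7 were lost there, and Itga2, Itga2b, Itga11 and Itgb2 passed on 5 arrays or fewer.

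**Figure D1:**
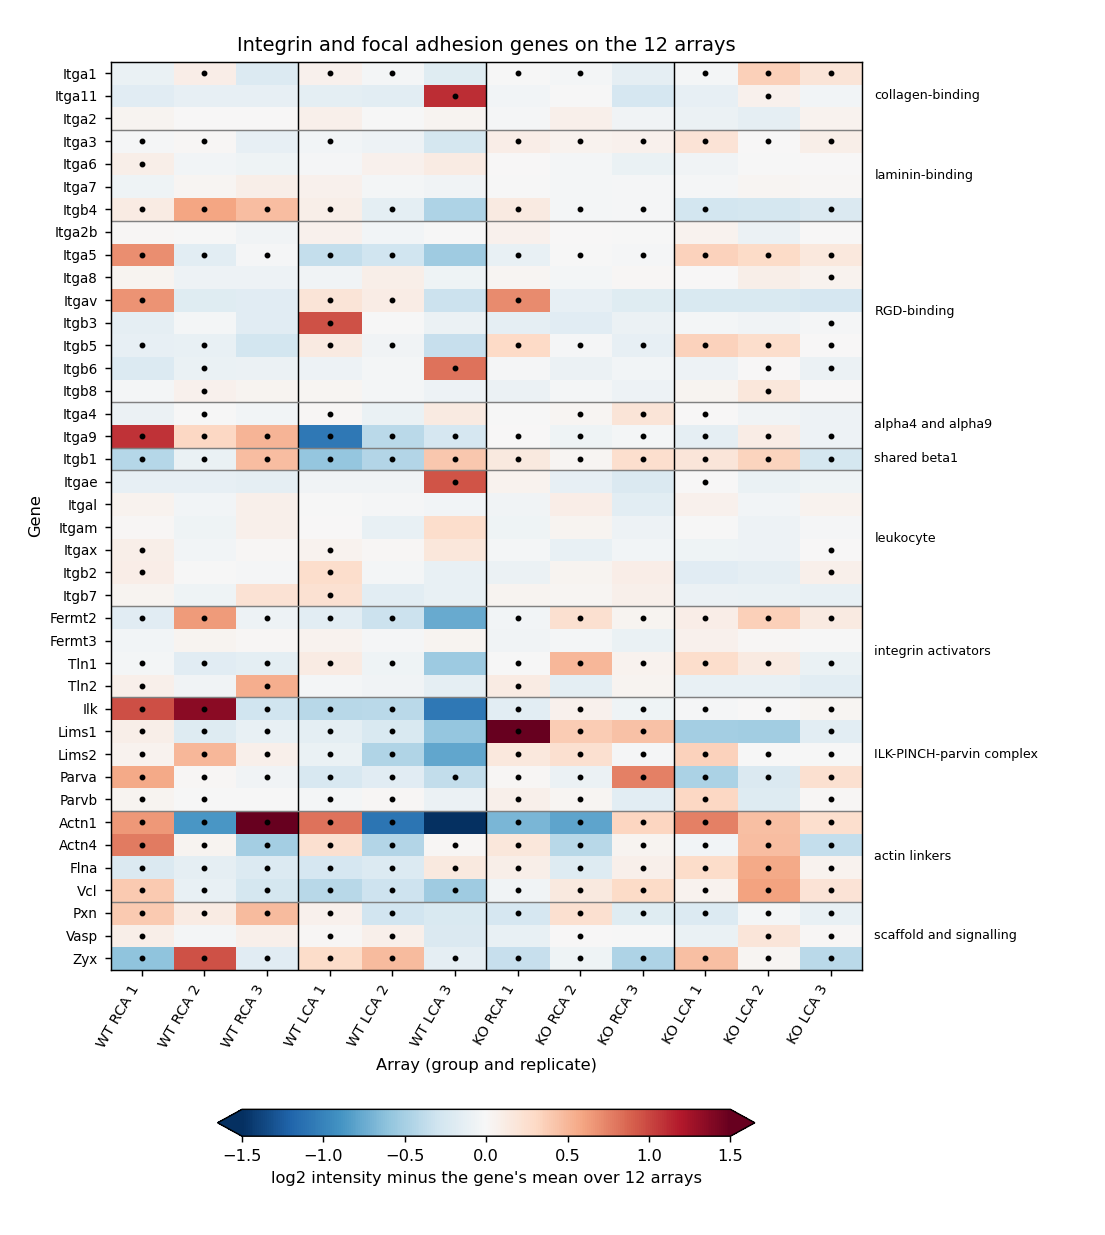
Log2 intensity of each of the 40 genes with a probe on each of the 12 arrays, as the difference from that gene's mean over the arrays (colour), with genes ordered by role and arrays by group. A dot marks a value above that array's receptor level; the integrin rows are mostly without dots and the adaptor rows mostly with them, and the column of WT LCA replicate 3 has dots for 10 genes.

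After ligation in WT, the lowest p-values belonged to matrix receptors and adaptors with a lower signal in the LCA. Of the 36 genes tested, 8 had an unadjusted p under 0.05 in limma, where 6.94% of all 15298 genes tested did, and all 8 were lower in the LCA (4.48% of all genes were lower by that measure and 2.46% higher). They were the receptor subunits Itga9, Itga5 and Itgb4 and the adaptors Ilk, Lims2, Fermt2, Pxn and Vcl. None had an adjusted p under 0.05, and neither did any other gene, so no gene was called in this comparison (0% of all genes). In 8 genes all WT LCA arrays lay below all WT RCA arrays, against 6.63% of all genes: the same set with Parva in place of Fermt2. In 2 dim genes, Itgae and Itgb6, they lay above, against 4.54% of all genes (11.2% in either direction). The median difference over the 36 genes was -0.05 log2 units, against -0.002 over all genes tested. Endothelial markers were also lower in the WT LCA. Their mean log2 level was 7.80 to 8.004 per array against 8.10 to 8.23 in the RCA. At an unadjusted p under 0.05 in limma, 3 of 14 were lower. Fibroblast markers stood at 6.90 to 7.16 against 7.09 to 7.41, with 7 of 12 differences negative and 3 lower at that p. The part of these markers in the result was not tested. In bulk RNA, fewer cells of a type and less RNA per cell cannot be told apart. Without WT LCA replicate 3, 7 genes lay under an unadjusted 0.05, Itgb3 among them in place of Vcl and Fermt2, against 5.93% of all genes. Itgb3 differed in direction, being higher in the WT LCA. Its difference was 0.40 log2 units in the main fit and 0.07 without WT LCA replicate 1.

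In KO arteries the PINCH gene Lims1 had the largest ligation difference. An unadjusted p under 0.05 was reached by 2 of 36, against 6.81% of all genes. Lims1 was lower in the LCA (4.01% of all genes were) and Itgb8 was higher (2.8% were), by 0.14 log2 units near background. Groups without overlap were found for 7 of 36, against 19.8% of all genes: Itga5, Itgb3, Itgb8 and Fermt3 were higher in the LCA (8.45% of all genes) and Itgav, Itgb4 and Lims1 lower (11.3%). No adjusted p was under 0.05 (0% of all genes). The median difference was 0.03 log2 units, against -0.006 over all genes. Endothelial markers were lower in the KO LCA, at 7.73 to 7.84 per array against 7.95 to 8.02 in the KO RCA, with 11 of 14 differences negative. Fibroblast markers stood at 7.24 to 7.58 against 6.97 to 7.29, 6 of 12 being higher at an unadjusted p under 0.05, and adipocyte markers at 6.96 to 7.25 against 6.57 to 6.83, 3 of 7 tested being higher. Their part in these values was not tested.

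Between untouched arteries, KO minus WT, 4 of 36 genes had an unadjusted p under 0.05, against 4.28% of all genes. Itga9, Itgb4 and Pxn were lower in KO (1.8% of all genes) and Lims1 was higher (2.48%). No gene had an adjusted p under 0.05 (0% of all genes). Groups did not overlap in 5 genes, against 12% of all genes: Itga3, Itga4, Tln1 and Lims1 were higher in KO (6.78% of all genes) and Itga9 was lower (5.22%). The median difference was -0.02 log2 units, against 0.002 over all genes. Endothelial markers were at 7.95 to 8.02 in the KO RCA against 8.10 to 8.23 in the WT RCA, with 8 of 14 differences negative and 0 at an unadjusted p under 0.05. Smooth muscle markers stood at 7.02 to 7.21 against 6.74 to 6.96, 3 of 11 tested being higher at that p. Erythrocyte markers stood at 8.28 to 9.95 against 7.48 to 8.66, with 5 of 5 differences positive and 2 at that p. The part of these markers was not tested.

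Between ligated arteries, the smallest p-values belonged to a few receptor and adaptor genes with a higher signal in KO, while the 36 genes were mixed in sign: 21 differences were above 0 and 15 below, and all 3 leukocyte subunits tested were below. An unadjusted p under 0.05 was reached by 7 of 36, all 7 higher in KO, against 6.88% of all genes in either direction, 4.9% higher and 1.99% lower. They were Itga5, Itga9, Itga3, Vcl, Lims2, Fermt2 and Flna. None had an adjusted p under 0.05, which 1 of the 15298 genes tested did (0.00654%). In 7 genes all KO LCA arrays lay above all WT LCA arrays, against 8.27% of all genes, and in 1, the dim leukocyte gene Itgax, below (5.52%), together 13.8% of all genes. The median difference was 0.06 log2 units, against -0.008 over all genes. Fibroblast markers were higher in the KO LCA too, with a mean log2 level of 7.24 to 7.58 per array against 6.90 to 7.16 in the WT LCA, 7 of 12 of them higher at an unadjusted p under 0.05, and smooth muscle markers stood at 7.17 to 7.66 against 6.72 to 7.03, 5 of 11 tested being higher. Adipocyte markers stood at 6.96 to 7.25 against 6.58 to 6.74, 4 of 7 tested being higher, and 2 of 14 endothelial markers were lower. Their part in the result was not tested. Without WT LCA replicate 3 the number was again 7, now Itga3, Itga5, Itga9, Itgb1, Itgb3, Vcl and Flna, against 7.18% of all genes. Among them Itgb3 was lower in KO, not higher. Its WT LCA replicate 1 was at 192 and its WT LCA replicate 2 at 98.3, against 94.8 to 97.2 in the KO LCA. Without KO LCA replicate 2 it was 4 (Itga3, Itga5, Vcl and Lims2), against 6.66% of all genes. After cyclic loess between arrays it was 2 (Itga3 and Itga5), against 6.5% of all genes.

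The interaction, the ligation difference in KO minus that in WT, had an unadjusted p under 0.05 for 6 of 36 genes, against 3.54% of all genes. Itga9, Itga5, Ilk, Lims2 and Itgb8 were positive (2.23% of all genes) and Lims1 was negative (1.31%). None had an adjusted p under 0.05 (0% of all genes). The median over the 36 was 0.11 log2 units, against -0.01 over all genes. This comparison shares all its arrays with the others, so it is another view of the same values. Fibroblast markers were positive in 11 of 12, with a median of 0.57 log2 units and 5 at an unadjusted p under 0.05 in limma. Endothelial markers were positive in 9 of 14, with a median of 0.21, and erythrocyte markers negative in 4 of 5, with a median of -0.75. The part of these markers was not tested. With WT LCA replicate 3 left out, 3 genes were under 0.05, Itga5, Itga9 and Lims1, a count not set against all genes here.

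**Figure D2:**
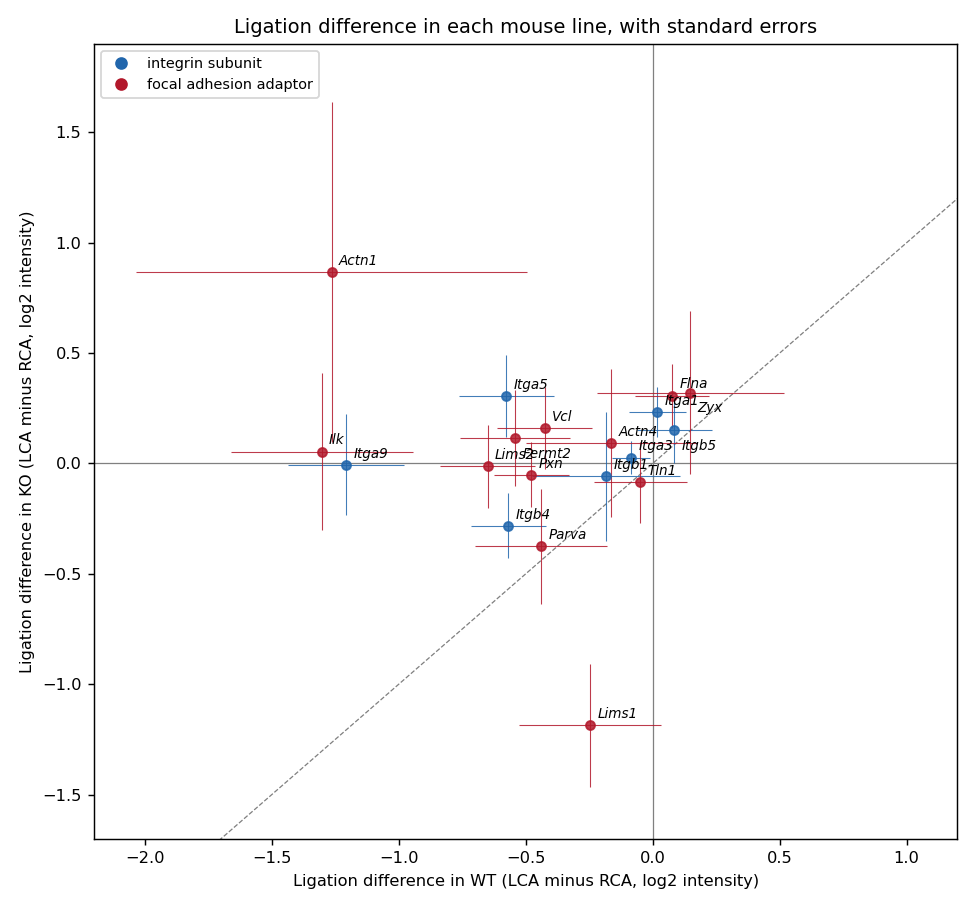
LCA minus RCA difference in WT (horizontal) against that in KO (vertical), in log2 units with standard errors, for the 19 genes above the receptor level on all arrays of at least 1 group; integrin subunits are blue, adaptors red, and the dashed line marks equal differences. Itga9 and Ilk lie at -1.21 and -1.30 in WT and near 0 in KO, Itga5 is below 0 in WT and above it in KO, and Lims1 lies far below the line.

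Among the integrins tested, the subunit with the largest ligation difference in WT was Itga9, at chromosome 9, 118606709 to 118901003 (GRCm38.p6, as for all coordinates here). It encodes alpha9, which pairs with beta1 and binds fibulin-5, tenascin-C and the cellular form of fibronectin. Its intensity was 1152, 676 and 774 in the WT RCA, 259.5, 412 and 458 in the WT LCA, 548, 520.1 and 534 in the KO RCA and 496, 589 and 515 in the KO LCA. All WT RCA arrays were above every other array, all WT LCA arrays were below every other array, and the KO arteries lay between them on both sides with little spread. Group means were 867 ± 251 in the WT RCA, 377 ± 104 in the WT LCA, 534 ± 14.05 in the KO RCA and 533 ± 49.2 in the KO LCA (SD, n = 3). Differences are given with the standard error of the fit. In WT the LCA minus RCA difference was -1.21 ± 0.23 log2 units (unadjusted p = 0.000407, adjusted p = 0.321 in limma), and in KO it was -0.01 ± 0.23. KO minus WT was -0.66 ± 0.23 in the RCA (unadjusted p = 0.0166, adjusted p = 1) and 0.54 ± 0.23 in the LCA (unadjusted p = 0.0409, adjusted p = 0.699). The interaction was 1.202 ± 0.32 (unadjusted p = 0.00429, adjusted p = 0.906). Leaving out WT LCA replicate 3 gave -1.37 for WT ligation. The KO minus WT difference was -0.44 in the RCA without WT RCA replicate 1 and 0.29 in the LCA without WT LCA replicate 1. The second Itga9 probe, also above the receptor level on all 12 arrays, did not share the pattern: it read 296, 319 and 211 in the WT RCA, 158, 541 and 197 in the WT LCA, 219, 268 and 305 in the KO RCA and 166, 267 and 227 in the KO LCA. Its WT ligation difference was -0.08 and its interaction -0.19 log2 units, so the Itga9 pattern belongs to 1 probe of the gene.

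Itga5 encodes alpha5, which with beta1 forms the main fibronectin receptor and which has also been described as a receptor of fibulin-5; it lies at chromosome 15, 103344286 to 103366791. Its intensity was 218, 121 and 133 in the WT RCA, 105, 109 and 92.5 in the WT LCA, 125, 134 and 133 in the KO RCA and 170.0, 164 and 149.7 in the KO LCA. In WT every LCA array lay below every RCA array, and in KO every LCA array lay above every RCA array. The LCA minus RCA difference was -0.58 ± 0.19 log2 units in WT (unadjusted p = 0.0117, adjusted p = 0.673 in limma) and 0.31 ± 0.19 in KO (unadjusted p = 0.133, adjusted p = 0.776). The WT difference was -0.31 without WT RCA replicate 1, the array at 218. The KO LCA exceeded the WT LCA by 0.66 ± 0.19 (unadjusted p = 0.00554, adjusted p = 0.41), while the untouched arteries differed by -0.22 ± 0.19. The interaction was 0.88 ± 0.26 (unadjusted p = 0.00768, adjusted p = 0.906). This opposite order without overlap was found in 60 of the 15298 genes tested (0.392%) and in no other integrin or adaptor gene tested. The levels were low, with the WT LCA at 102 ± 8.64 against receptor levels of up to 126, so that Itga5 was above the receptor level on 2 of 3 WT LCA arrays. The second probe read 184, 121 and 137 in the WT RCA, 107, 108 and 81.5 in the WT LCA, 111, 125 and 134 in the KO RCA and 166, 108 and 157 in the KO LCA. It gave -0.57 for WT ligation, 0.20 for KO ligation and 0.52 for KO minus WT in the LCA, with the signs of the first probe. It did not share the order without overlap in KO, since its KO LCA replicate 2 at 108 was below all its KO RCA arrays.

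Itgb1 encodes beta1, the partner of most alpha subunits including alpha5 and alpha9 (chromosome 8, 128685654 to 128733579). Its intensity was 228, 284 and 422 in the WT RCA, 204, 225 and 406 in the WT LCA, 338, 312 and 364 in the KO RCA and 346, 386 and 255 in the KO LCA. The groups overlapped in every comparison, and the differences were -0.18 ± 0.29 for WT ligation and 0.29 ± 0.29 for KO minus WT in the LCA. A second probe read 249.8, 369 and 343 in the WT RCA, 299, 229 and 96.0 in the WT LCA, 265, 266 and 481 in the KO RCA and 663, 257 and 407 in the KO LCA. It was lowest on WT LCA replicate 3 and highest on KO LCA replicate 1, and gave -0.76 and 1.13 for these comparisons. On the probe with the highest mean, no Itgb1 difference exceeded the spread between arrays.

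The alphav family, which holds further fibulin-5 receptors, was close to background. Itgav, whose product pairs with beta3, beta5, beta6 and beta8, read 169, 93.7 and 94.5 in the WT RCA, 121, 114 and 85.05 in the WT LCA, 173, 97.3 and 93.9 in the KO RCA and 90.7, 90.6 and 88.9 in the KO LCA. Its RCA values were high on replicate 1 of each line and at background on the others, and all KO LCA arrays were below the receptor level. A bound taken against the receptor level put the KO LCA mean at least 1.18-fold below the KO RCA mean, but it rests on KO RCA replicate 1 alone. The fitted difference was -0.37 ± 0.28 log2 units (unadjusted p = 0.217, adjusted p = 0.813 in limma). The 4 other Itgav probes gave -0.22 to 0.20, and the mean of all its probes that passed the filter gave -0.08. Itgb5, a beta partner above the receptor level on all KO arrays, was at 108, 109 and 96.9 in the WT RCA, 129, 114 and 92.6 in the WT LCA, 145, 116 and 108 in the KO RCA and 149, 141 and 119 in the KO LCA. KO LCA exceeded WT LCA by 0.29 ± 0.15 (unadjusted p = 0.0769, adjusted p = 0.756 in limma), within overlapping ranges. Itgb3, which also makes the platelet fibrinogen receptor with Itga2b, was at 192 on WT LCA replicate 1 and at 98.3 and 92.8 on the others of its group. Itga8, which binds nephronectin, ranged from 89.5 to 100.7. Itgb6, an epithelial subunit, read 181 on WT LCA replicate 3. Itgb8, which with alphav activates latent TGF-beta, ranged from 88.4 to 106, and its difference of 0.14 ± 0.06 between KO LCA and KO RCA lay within that narrow range and was 0.09 without KO LCA replicate 2. Itga4, the alpha9 relative that binds VCAM-1 and fibronectin on leukocytes, ranged from 92.5 to 112.

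Of the laminin receptors, Itgb4 gave the clearest values. Its product pairs with alpha6, binds laminin and anchors intermediate filaments, and the gene lies at chromosome 11, 115974725 to 116008412. Its intensity was 133, 185 and 169 in the WT RCA, 130.1, 110.0 and 88.9 in the WT LCA, 135, 119 and 121 in the KO RCA and 101, 102 and 105 in the KO LCA. All WT LCA arrays were below all WT RCA arrays and all KO LCA arrays below all KO RCA arrays, and the ligated groups of both lines overlapped. The LCA minus RCA difference was -0.57 ± 0.15 log2 units in WT (unadjusted p = 0.00336, adjusted p = 0.542 in limma) and -0.28 ± 0.15 in KO (unadjusted p = 0.0845, adjusted p = 0.761), with an interaction of 0.29 ± 0.21. The untouched artery of KO was lower than that of WT by 0.36 ± 0.15 (unadjusted p = 0.0337, adjusted p = 1). The second probe gave -0.21 for ligation in WT and -0.21 in KO. Itga3, the alpha subunit of another laminin receptor, read 104, 106 and 96.7 in the WT RCA, 102, 99.7 and 87.7 in the WT LCA, 113, 109 and 110.2 in the KO RCA and 121, 105 and 111 in the KO LCA. Its KO LCA arrays were all above its WT LCA arrays, a difference of 0.23 ± 0.08 (unadjusted p = 0.0136, adjusted p = 0.512) at levels near the receptor level. Itga6, the partner of Itgb4, ranged from 88.5 to 102, near background, so the pair was read through Itgb4 alone. The collagen receptor subunit Itga1 stood at 103, 133 and 119.5 in the KO LCA and 109, 102 and 91.8 in the WT LCA, and its KO ligation difference was 0.23 ± 0.11 (unadjusted p = 0.0666, adjusted p = 0.748).

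Leukocyte integrins were mostly at background. Itgal and Itgam, the alpha subunits of LFA-1 and Mac-1, exceeded the receptor level on 0 arrays, Itgax and Itgb2 on 3 each, Itgae on 2 and Itgb7 on 1. Itgae at 189, the collagen receptor subunit Itga11 at 211 and Itgb6 had their highest value on WT LCA replicate 3, the array that stood apart, and were at or below 104 elsewhere. Itgb2, the beta subunit of LFA-1 and Mac-1, was highest at 112 on WT LCA replicate 1. Whether the dim subunits were expressed could not be seen at this signal over background.

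**Figure D3:**
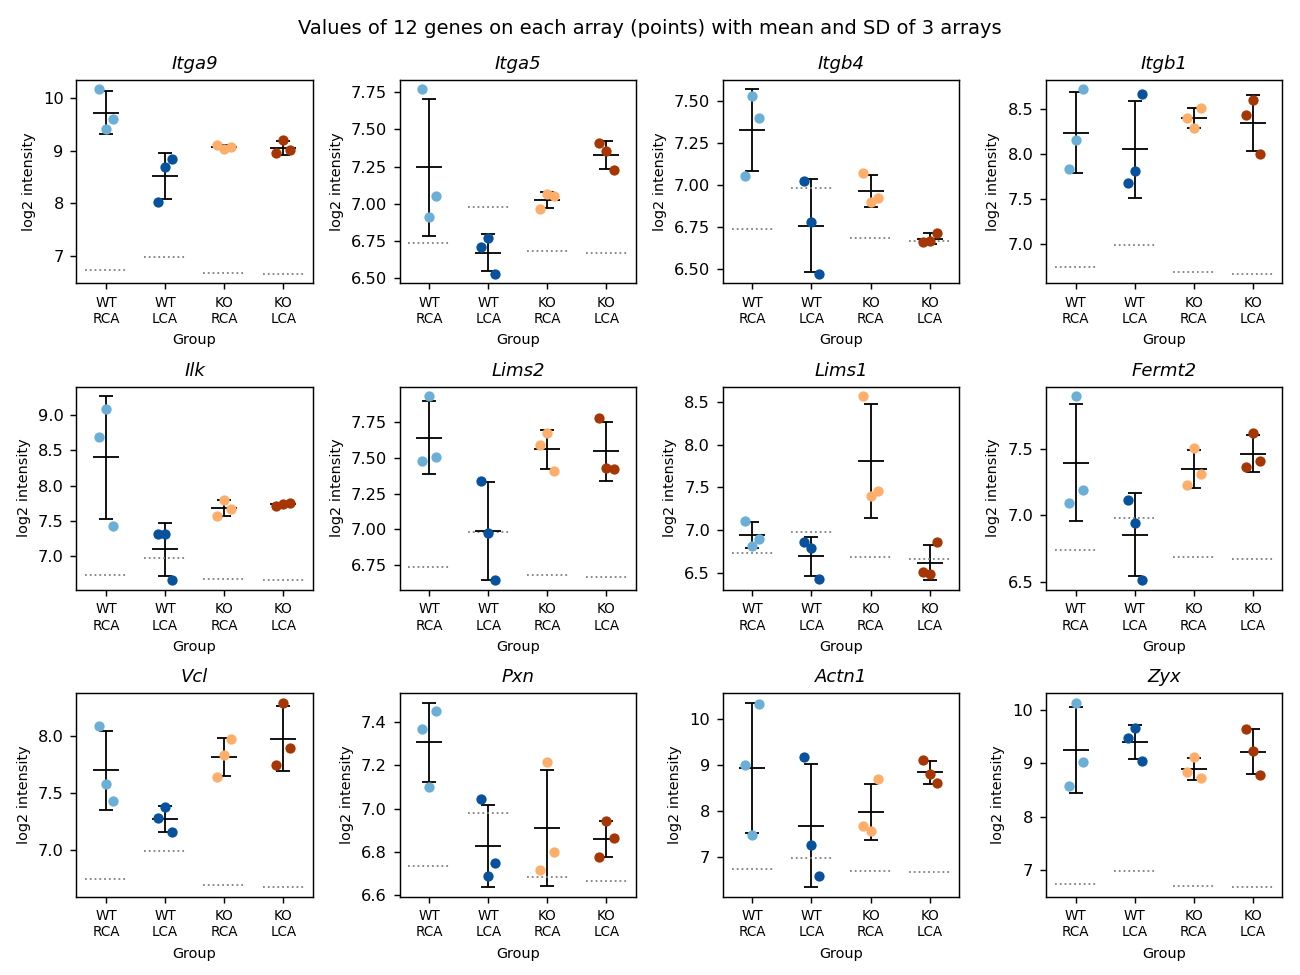
Log2 intensity on each array (points), with the group mean and SD (bars), for 12 integrin and adaptor genes in the 4 groups; the dotted line is the highest receptor level of the 3 arrays of a group. The WT RCA points of Itga9 lie above all others, the Itga5 points go down from RCA to LCA in WT and up in KO, and KO RCA replicate 1 stands above the rest in the panel of Lims1.

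Within the ILK-PINCH-parvin complex, WT ligation gave low values for Ilk and Lims2. Ilk (chromosome 7, 105736590 to 105742925) encodes the pseudokinase at the centre of the complex. Its intensity was 414, 543 and 172 in the WT RCA, 159, 159.9 and 101 in the WT LCA, 191, 222 and 203 in the KO RCA and 209, 213 and 216 in the KO LCA. WT RCA replicates 1 and 2 were far above all other arrays, replicate 3 was below every KO array, and all WT LCA arrays were below every array of the other groups. The difference was -1.30 ± 0.36 log2 units in WT (unadjusted p = 0.00477, adjusted p = 0.571 in limma) and 0.05 ± 0.36 in KO, with an interaction of 1.36 ± 0.51 (unadjusted p = 0.0236, adjusted p = 0.906). The WT difference was -1.08 without WT LCA replicate 3. The second Ilk probe gave -0.13 for WT ligation and 0.44 for KO minus WT in the LCA. Lims2, which encodes PINCH-2, read 178, 244 and 181 in the WT RCA, 162, 126 and 100.4 in the WT LCA, 193, 204 and 170.0 in the KO RCA and 219.8, 172 and 172 in the KO LCA. All WT LCA arrays were below all arrays of the other 3 groups, which lay together. The difference was -0.65 ± 0.19 in WT (unadjusted p = 0.00643, adjusted p = 0.607) and -0.01 ± 0.19 in KO, and KO LCA exceeded WT LCA by 0.56 ± 0.19 (unadjusted p = 0.0148, adjusted p = 0.53). After cyclic loess the latter difference was 0.28. The other Lims2 probes gave -1.24 and -0.49 for WT ligation, and 0.29 and 0.31 for KO minus WT in the LCA.

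Lims1, which encodes PINCH-1 (chromosome 10, 58323342 to 58424691), had another pattern than its paralogue. Its intensity was 138, 113 and 119 in the WT RCA, 117, 110.5 and 86.6 in the WT LCA, 381, 168 and 175 in the KO RCA and 91.0, 90.1 and 116 in the KO LCA. The KO RCA arrays were above all others, replicate 1 furthest, and the KO LCA was near background. The difference between KO LCA and KO RCA was -1.19 ± 0.28 log2 units (unadjusted p = 0.0019, adjusted p = 0.717 in limma), KO RCA exceeded WT RCA by 0.86 ± 0.28 (unadjusted p = 0.0121, adjusted p = 1), and the interaction was -0.94 ± 0.40. Without KO RCA replicate 1, the array at 381, KO RCA exceeded WT RCA by 0.48 and the interaction was -0.56. A second Lims1 probe gave -0.05 and 0.05 for KO ligation and for KO minus WT in the RCA, so it did not share them. Parva, the parvin of smooth muscle and endothelium, read 247, 169 and 161 in the WT RCA, 141, 148 and 128 in the WT LCA, 168, 156 and 282 in the KO RCA and 119.7, 143 and 197 in the KO LCA. The LCA was lower by 0.44 ± 0.26 in WT (unadjusted p = 0.122, adjusted p = 0.684), without overlap, and by 0.38 ± 0.26 in KO, with overlap. Parvb, the gene of beta-parvin, ranged from 91.4 to 130.

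The activators of integrins were measured mainly through Tln1 and Fermt2. Fermt2 encodes kindlin-2, the kindlin of the vessel wall (chromosome 14, 45458792 to 45530310), and read 137, 239.5 and 146 in the WT RCA, 139, 123 and 91.1 in the WT LCA, 150.1, 182 and 159 in the KO RCA and 165, 197 and 169.8 in the KO LCA. WT LCA was lowest on replicate 3, and its highest value lay within the range of the WT RCA. The LCA minus RCA difference was -0.54 ± 0.22 in WT (unadjusted p = 0.0329, adjusted p = 0.684 in limma) and 0.12 ± 0.22 in KO. KO LCA exceeded WT LCA by 0.61 ± 0.22 (unadjusted p = 0.0194, adjusted p = 0.573) without overlap. The WT difference was -0.29 without WT RCA replicate 2, and after cyclic loess the WT and the KO LCA differences were -0.35 and 0.37. A second Fermt2 probe gave 0.04 and 0.06 for the WT ligation and the KO LCA comparison, so it showed neither. Tln1, the gene of talin-1, read 158, 143 and 145 in the WT RCA, 175, 154 and 110.0 in the WT LCA, 160.1, 226 and 167 in the KO RCA and 193, 176 and 150.0 in the KO LCA. Its ligation differences were -0.05 ± 0.18 in WT and -0.08 ± 0.18 in KO, and the KO RCA arrays were above the WT RCA arrays by 0.30 ± 0.18 (unadjusted p = 0.138, adjusted p = 1). Tln2 stood at 142 on WT RCA replicate 3 and at 87.8 to 107 elsewhere, and Fermt3, the kindlin of blood cells, was above the receptor level on 0 arrays.

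Vcl encodes vinculin, which strengthens the link between talin and actin under tension, and lies at chromosome 14, 20929383 to 21033676. Its intensity was 271, 191 and 172 in the WT RCA, 155, 166 and 142 in the WT LCA, 199, 228 and 251 in the KO RCA and 214, 314 and 238 in the KO LCA. All WT LCA arrays were below every array of the other groups. The LCA minus RCA difference was -0.43 ± 0.19 log2 units in WT (unadjusted p = 0.0467, adjusted p = 0.684 in limma) and 0.16 ± 0.19 in KO. KO LCA exceeded WT LCA by 0.71 ± 0.19 (unadjusted p = 0.00384, adjusted p = 0.35), the smallest p among the 36 genes in that comparison. The interaction was 0.59 ± 0.26 (unadjusted p = 0.0517, adjusted p = 0.906). The difference between the ligated arteries was 0.65 without WT LCA replicate 3 and 0.43 after cyclic loess, and the WT ligation difference was -0.23 without WT RCA replicate 1 and -0.25 after cyclic loess. Vcl had a single probe.

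Vinculin, which gave that smallest p, is a classic target of serum response factor (SRF). The stretch upstream of the Vcl start (RefSeq, chr14:20929148-20929382, plus strand) is shown with a CArG box, the SRF recognition motif, and a GGAATG, the motif of the TEAD factors of the YAP pathway, in capitals, and that of Itga5 (chr15:103366792-103367041, minus strand), which has neither motif, beside it.
Vcl: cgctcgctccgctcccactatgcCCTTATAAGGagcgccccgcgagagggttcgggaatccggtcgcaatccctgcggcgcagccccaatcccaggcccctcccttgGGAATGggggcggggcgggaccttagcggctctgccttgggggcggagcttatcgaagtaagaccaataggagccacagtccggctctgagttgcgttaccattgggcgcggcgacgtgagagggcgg
Itga5: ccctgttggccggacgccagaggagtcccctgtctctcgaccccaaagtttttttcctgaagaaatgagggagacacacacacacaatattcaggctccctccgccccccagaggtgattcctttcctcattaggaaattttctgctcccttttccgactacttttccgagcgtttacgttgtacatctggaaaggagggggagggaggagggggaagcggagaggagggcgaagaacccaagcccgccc
In RefSeq promoter windows of 300 bases, searched on both strands, a CArG box was found in 535 of 32851 windows (1.63%) and in 3 of 35 windows of the genes described here, those of Vcl, Fermt2 and Itgb6. The motifs do not overlap in Vcl, where they lie 227 and 143 bases before the start point of the window. That point lies 15 bases inside the annotated gene, and those 15 bases are left out of the stretch shown. GGAATG was found in 14.7% of all windows and in 5 of 35 (Vcl, Itgb1, Actn4, Flna and Itga10). Of the 42 genes, 30 had a window. A match is a description of the letters and not a site of binding.

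The other actin linkers gave wider spreads. Actn1, the gene of alpha-actinin-1, read 514, 179 and 1286 in the WT RCA, 578, 153 and 96.5 in the WT LCA, 205, 189.6 and 412 in the KO RCA and 554, 447 and 393 in the KO LCA. Values within WT groups differed by several fold, WT LCA replicate 3 was at background, and the KO LCA arrays lay close together. The interaction of 2.13 ± 1.09 was the largest of all 36 genes and did not exceed the spread (unadjusted p = 0.0796, adjusted p = 0.906 in limma). Actn4, the gene of alpha-actinin-4, read 392, 235 and 161 in the WT RCA, 271, 169 and 232 in the WT LCA, 258, 172 and 235 in the KO RCA and 222, 317 and 179 in the KO LCA and had differences of -0.16 for WT ligation and 0.08 for KO minus WT in the LCA, while its other probes gave 0.78 and 0.73 for the latter. Flna, the gene of the actin crosslinker filamin A, read 118, 125 and 119 in the WT RCA, 115, 119 and 152 in the WT LCA, 146, 119.8 and 145 in the KO RCA and 166, 203 and 142 in the KO LCA. KO LCA exceeded WT LCA by 0.40 ± 0.15 (unadjusted p = 0.0205, adjusted p = 0.58), with WT LCA replicate 3 inside the range of the KO LCA, and by 0.22 after cyclic loess.

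Among the scaffold proteins, Pxn (paxillin, chromosome 5, 115491970 to 115555987) gave the smallest p-values. Its intensity was 165, 137 and 175 in the WT RCA, 132, 103 and 107 in the WT LCA, 105, 149 and 111 in the KO RCA and 109.7, 123 and 116 in the KO LCA. All WT LCA arrays were below all WT RCA arrays, and the KO groups overlapped with the WT LCA. The difference was -0.48 ± 0.15 log2 units for WT ligation (unadjusted p = 0.00953, adjusted p = 0.656 in limma), -0.05 ± 0.15 for KO ligation and -0.39 ± 0.15 for KO minus WT in the RCA (unadjusted p = 0.0249, adjusted p = 1). Its 4 other probes gave -0.50 to 0.02 for WT ligation. Zyx, the gene of the tension-sensitive LIM protein zyxin, read 384, 1133 and 521 in the WT RCA, 711, 816 and 532 in the WT LCA, 460.0, 557 and 424 in the KO RCA and 801, 599 and 442 in the KO LCA. Its groups overlapped in every comparison, with differences from -0.35 to 0.32. Vasp, which encodes an actin elongation factor that zyxin binds, ranged from 84.7 to 112.

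**Figure D4:**
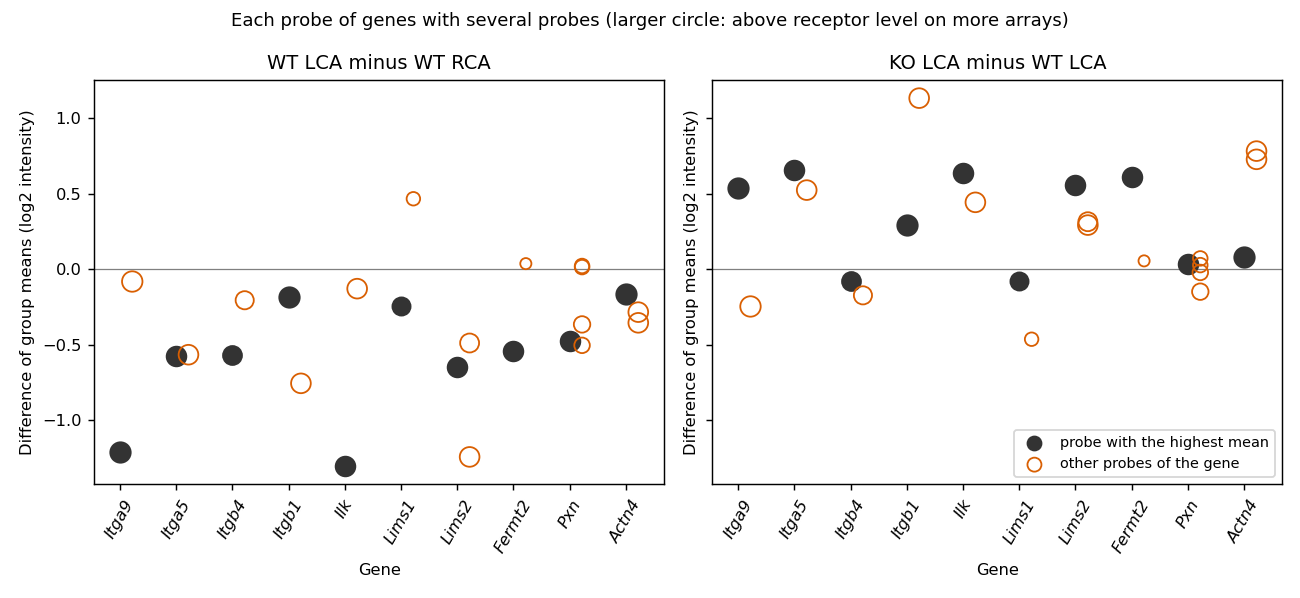
Log2 difference of each kept probe of 10 genes with several probes, for WT LCA minus WT RCA and for KO LCA minus WT LCA; a filled circle is the probe with the highest mean, open circles are the other probes, and a larger circle means more arrays above the receptor level. The probes of Itga5, Lims2, Ilk, Itgb4, Itgb1 and Actn4 lie on one side of 0 in both comparisons, though those of Ilk lie apart in WT (-1.30 and -0.13). The probes of Itga9, Fermt2, Lims1 and Pxn do not keep to one side of 0 throughout.

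The other genes of these contacts were read from 4 further lists. The counts are to be read against all genes tested, of which those higher and lower at an unadjusted p under 0.05 were 2.46% and 4.48% after ligation in WT, 2.8% and 4.01% after ligation in KO, 2.48% and 1.8% in KO minus WT RCA, and 4.9% and 1.99% in KO minus WT LCA. Of 30 matrix ligands of integrins tested, 1 was higher and 3 were lower at that p after ligation in WT, 4 and 0 in KO, 3 and 1 in KO minus WT RCA, and 11 and 0 in KO minus WT LCA (against 4.9% and 1.99% of all genes), where the list's median was 0.27 log2 units against -0.008 over all genes. None had an adjusted p under 0.05. Ccn2 (connective tissue growth factor, a matrix protein that binds alphav integrins) had the smallest p in all but the interaction, at 227 ± 88.6 in the WT RCA, 789.8 ± 278 in the WT LCA, 832 ± 98.1 in the KO RCA and 1862 ± 384 in the KO LCA (SD, n = 3, as for the other means here). Its differences were 1.81 ± 0.30 for WT ligation, 1.15 ± 0.30 for KO ligation, 1.94 ± 0.30 for KO minus WT in the RCA and 1.27 ± 0.30 in the LCA, with adjusted p = 0.321, 0.717, 0.255 and 0.27 in limma. Thbs1 (thrombospondin-1) gave 1.22 ± 0.36 in the RCA, Ltbp1, which tethers latent TGF-beta, 0.66 ± 0.17 in the LCA, and the laminin chain Lama5 -0.63 ± 0.23 for WT ligation. The collagen I chain Col1a2 gave 0.51 ± 0.17 for KO ligation and 0.90 ± 0.25 in the interaction, and Col1a1 0.47 ± 0.19 in the interaction. Fibroblast markers, which were higher in the KO LCA than in the WT LCA, include Col1a1 and Col1a2 of this list, and their part was not tested.

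Of 10 cell surface ligands of leukocyte integrins, 1 was higher and 0 were lower at an unadjusted p under 0.05 after WT ligation (against 2.46% and 4.48% of all genes), 0 and 0 after KO ligation (2.8% and 4.01%), and 1 and 1 in each of the KO minus WT comparisons (2.48% and 1.8% in the RCA, 4.9% and 1.99% in the LCA). None had an adjusted p under 0.05. Icam1, the endothelial ligand of LFA-1 and Mac-1, was at 271 ± 18.8 in the WT RCA, 418 ± 111 in the WT LCA, 739.8 ± 90.0 in the KO RCA and 575 ± 110.2 in the KO LCA. KO minus WT was 1.44 ± 0.20 in the RCA (adjusted p = 0.25 in limma) and 0.47 ± 0.20 in the LCA, ligation gave 0.59 ± 0.20 in WT and -0.38 ± 0.20 in KO, and the interaction was -0.97 ± 0.28. Icam2 gave -0.67 ± 0.34 and -0.72 ± 0.34 for ligation in WT and KO. The junction protein gene Jam2 gave -0.55 ± 0.19 for KO minus WT in the RCA, -0.91 ± 0.19 in the LCA and -0.36 ± 0.26 in the interaction.

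Of 49 other focal adhesion genes tested, 0 were higher and 5 lower at an unadjusted p under 0.05 after WT ligation (against 2.46% and 4.48% of all genes). There 38 of 49 differences were negative, against 50.6% of all genes, with a median of -0.11 log2 units against -0.002. The counts were 1 and 1 after KO ligation (2.8% and 4.01%), 0 and 2 in KO minus WT RCA (2.48% and 1.8%), and 5 and 0 in KO minus WT LCA (4.9% and 1.99%), where the median was 0.08 against -0.008. No gene of the list had an adjusted p under 0.05. Itgb1bp1, whose product ICAP-1 binds the beta1 tail, gave -0.89 ± 0.28 for WT ligation, from 283 ± 126 to 145 ± 27.7. Dab2, the gene of an endocytic adaptor of integrins, gave -0.50 ± 0.16 there and 0.72 ± 0.22 in the interaction. Sorbs2, the gene of a vinculin-binding protein, gave 0.67 ± 0.24 for KO ligation, 0.93 ± 0.24 for KO minus WT in the LCA and 0.77 ± 0.34 in the interaction, and Pdlim7 0.56 ± 0.13 in the LCA. Fermt1, the epithelial kindlin, gave -0.16 ± 0.05 for KO ligation near background, and the adaptor genes Crkl and Git1 gave -1.31 ± 0.42 and -0.23 ± 0.09 for KO minus WT in the RCA. Crkl was above the receptor level on 2 arrays only, both WT RCA, and was at background in the other 3 groups, with the KO RCA at least 2.26-fold lower than the WT RCA. Without WT RCA replicate 2, its fitted difference was -1.97 both for WT ligation and for KO minus WT in the RCA, with adjusted p = 7.54e-06 and 7.61e-06 in limma, and its interaction was 1.93 with adjusted p = 0.000107. Leaving that array out moved the difference away from -1.31, so it was the WT RCA array with the lowest Crkl signal. Its removal took most of the spread out of the group, with a standard error of 0.07 in place of 0.42. These small p-values therefore come from dropping the array that disagreed. They rest on the remaining WT RCA arrays against background in every other group, and are no bounds.

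Of 20 SRF target genes of the actin system tested, 1 was higher and 3 lower at an unadjusted p under 0.05 after WT ligation (against 2.46% and 4.48% of all genes), 4 and 0 after KO ligation (2.8% and 4.01%), 7 and 0 in KO minus WT RCA (2.48% and 1.8%), and 11 and 0 in KO minus WT LCA (4.9% and 1.99%). The medians were -0.02, 0.14, 0.20 and 0.28 log2 units, against -0.002, -0.006, 0.002 and -0.008 over all genes. At an adjusted p under 0.05 there was none. The list shares Ccn1 and Ccn2 with the matrix ligands. Ccn2, given above, was the 1 gene higher after WT ligation in both lists. It also had the smallest p of the SRF list in both ligation comparisons and in KO minus WT RCA. Tpm1, the gene of alpha-tropomyosin, was at 240.0 ± 28.4 in the WT RCA, 196 ± 50.1 in the WT LCA, 474 ± 88.1 in the KO RCA and 777 ± 208 in the KO LCA. KO exceeded WT by 1.98 ± 0.25 in the LCA (adjusted p = 0.0705 in limma), ligation in KO gave 0.69 ± 0.25, and the interaction was 1.01 ± 0.35. Without WT LCA replicate 1 or replicate 3 that adjusted p was 0.0409 or 0.0472, and with the mean of all its probes 0.0468. Acta2, smooth muscle actin, gave 0.74 ± 0.18 for KO minus WT in the RCA and 1.21 ± 0.18 in the LCA (adjusted p = 0.0714). Tpm4 gave -1.10 ± 0.36 for WT ligation, and Srf itself 1.57 ± 0.57 in the interaction. Smooth muscle markers, which hold 7 of the genes of this list, Acta2 among them, were higher in KO, at 7.02 to 7.21 per array in the RCA against 6.74 to 6.96 in WT. Their part was not tested.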

How the data were processed

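Total RNA was labelled with biotin and hybridised to Illumina arrays, per the labels' protocols. The deposited values are linear intensity values, with the same sorted values on every array apart from ties; how the authors corrected and scaled them is not given in the sources used here. Of 45281 probes, 34885 had 1 gene symbol in the platform annotation, 18 several and 10378 none, and only the first were used. The log2 of each deposited intensity (floor of 1) entered 1 limma fit (version 3.58.1, R 4.3.3) over the 4 group means with eBayes, tested on simulated data. The filter is given above. P-values were adjusted by Benjamini-Hochberg over 15298 genes, and a call needed an adjusted p under 0.05.

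The genes and lists were chosen with earlier results of these data known. Genes above the receptor level on all arrays of a group are given with values, and from each other list the 2 genes with the smallest p in each comparison. Tpm1 and Crkl without single arrays are given because their call turned on them. Differences are log2 with the standard error of the fit. The number of arrays limits the precision. Alternatives covered the fit, filter, scaling, probe choice and left-out arrays.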

Additional observations from a re-analysis of the deposited data

Results flagged for a closer look

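Itga5 was picked out because its ligation difference ran in opposite directions in the 2 lines. Every WT LCA array lay below every WT RCA array, and every KO LCA array lay above every KO RCA array. The interaction was 0.881 log2 units, with an unadjusted p = 0.00768 and an adjusted p = 0.906 in limma, so the difference between the lines did not pass the test. The same order without overlap was found in 60 of 15298 genes (0.392%). The second Itga5 probe gave 0.76, but its KO LCA replicate 2 lay below all its KO RCA arrays. Without WT RCA replicate 1 the WT ligation difference of the first probe was -0.31.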

How the results depend on the processing

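The number of integrin and adaptor genes with an adjusted p under 0.05 was 0 in all 5 comparisons under every alternative run. Counts at an unadjusted p under 0.05 were as follows. In the main fit the share of all genes was 6.94% for WT ligation, 6.81% for KO ligation and 3.54% for the interaction. It was 4.28% for KO minus WT in the RCA and 6.88% in the LCA. The share also moved with the setting, so a changed count alone is no result about these genes. WT ligation gave 8, and 5 when only the 2 groups compared were fitted (3.73% of all genes then). KO ligation gave 2, 4 with array weights, 4 when only the groups compared were fitted, 1 with the stricter filter and 1 with the mean of all probes of a gene. KO minus WT in the RCA gave 4, and 1 with the mean of all probes. KO minus WT in the LCA gave 7, and 2 after cyclic loess. Leaving out each array in turn gave 7 to 10 for WT ligation, 1 to 3 for KO ligation, 2 to 5 for KO minus WT in the RCA, 4 to 8 in the LCA and 3 to 8 for the interaction, and 0 to 0 at the adjusted threshold. The count for the RCA was 2 without WT RCA replicate 1 and without KO RCA replicate 3, and that for KO ligation was 1 without KO RCA replicate 1, KO RCA replicate 3 or KO LCA replicate 2. The cause of these moves was not tested. The genes at an unadjusted p under 0.05 had the same direction in 503 of 503 refits. They had been picked on the same arrays that were refitted, so an unchanged sign was largely fixed beforehand and is no independent check. The refits used the probe with the highest mean or the mean of a gene's probes, never another probe alone. Taken alone, the second Itga9 probe had the opposite sign for KO minus WT in the LCA and for the interaction. The second Fermt2 probe had it for WT ligation (0.04). Dimmer Pxn probes had it for WT ligation (0.01 and 0.02) and for KO minus WT in the RCA (0.08 and 0.02), while the remaining Pxn probes kept the sign. Same-numbered RCA and LCA arrays deviated together little (correlations 0.0384, 0.0521 and 0.0740 in WT, and -0.0129, -0.00216 and 0.0422 in KO), so the numbers were not taken to pair arteries. Arrays with different numbers gave -0.0500 to 0.00946 in WT, all below the same-numbered ones. In KO they gave -0.0603 to 0.0632, a range that holds the same-numbered ones. Whether the numbers pair arteries therefore stays unsettled, above all in WT. With the replicate block as a fixed term the counts were 9 for WT ligation, 2 for KO ligation and 7 for the interaction, and with a random replicate block (consensus correlation 0.0631) they were 8, 2, 4, 7 and 7, no call being gained; a fixed block cannot be estimated for KO minus WT. Signals near the receptor level, as for most integrin subunits, limit what could be seen.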
